A study of Homo sapiens with 12 samples.

Results

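The transcripts described here are those of 10 receptor tyrosine kinases of epithelial and lung cancer cells: EGFR, ERBB2, ERBB3, MET, AXL, FGFR1, FGFR4, DDR1, EPHA2 and RET. They were chosen by gene name from the 57773 genes of the count table, and all 10 were among the 17532 genes with enough counts to be tested. The cells were A549, a line derived from a human lung adenocarcinoma, harvested for RNA sequencing 72 h after they were reverse transfected with 50 nM siGOLM1-1, 50 nM siGOLM1-2 or 50 nM of a non-targeting control siRNA, so every group received an siRNA and the same transfection reagent, Lipofectamine RNAiMAX. Each group had 4 libraries, which the labels call biological replicates. The siRNAs target GOLM1, which encodes a membrane protein of the Golgi apparatus, and the comparisons ask which transcripts differ when it is silenced and whether both siRNAs give the same difference.

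Receptor tyrosine kinases are single-pass membrane proteins that bind a ligand outside the cell, pair up, and phosphorylate tyrosines on each other's cytoplasmic tails. Adaptor proteins such as GRB2 dock there and pass the signal to the RAS, RAF, MEK and ERK kinases, to PI3K and AKT, and to STAT3. Phosphatases, ubiquitin ligases and proteases that shed the extracellular part limit the signal. The receptors pass through the Golgi on their way to the cell surface. In lung adenocarcinoma, EGFR, MET, ERBB2 and RET are known drivers, and AXL and MET are known from resistance to EGFR inhibitors.

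GOLM1 was 9.52-fold lower with siGOLM1-1 and 7.72-fold lower with siGOLM1-2 than in the control, in all 8 knockdown libraries, by edgeR's quasi-likelihood test on all 12 libraries (adjusted p = 4.97e-12 and 1.57e-11). The 12 libraries held 41.6 M to 71.3 M counts each. The control libraries stood in 2 pairs: across genes, the deviations of replicates 1 and 2 from the control mean correlated at 0.33 and those of replicates 3 and 4 at 0.388, against -0.704 to -0.66 between the pairs, so results that rest on 1 pair are given with each. Of the defining epithelial markers, KRT8 averaged 1870, 3460 and 3810 CPM (counts per M counts of a library, scaled with TMM factors) with siGOLM1-1, with siGOLM1-2 and in the control, CDH1 averaged 123, 123 and 116 CPM, and EPCAM was low at 5.25, 5.37 and 4.26 CPM. The 6 epithelial markers summed to 5350 to 5750 CPM with siGOLM1-1, to 6440 to 6980 CPM with siGOLM1-2 and to 6660 to 9750 CPM in the control. The 13 markers of other cell types summed to 35.1 to 45 CPM, 64 to 67 CPM and 47.6 to 57.5 CPM in the same order of groups. Most of each sum was ACTA2 alone, at a mean of 35.6, 53.6 and 46.8 CPM. The defining immune markers PTPRC and CD3E held at most 2 counts and 1 count in any library. The part of these marker differences in the results below was not tested.

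The receptors did not move as a group. MET, the receptor for hepatocyte growth factor, fell 2.75-fold with siGOLM1-1 and rose 1.87-fold with siGOLM1-2. EGFR and EPHA2 rose and AXL fell with siGOLM1-2, where siGOLM1-1 gave no called change. DDR1 rose with siGOLM1-1, where siGOLM1-2 gave no called change. RET rose and FGFR4 fell with both siRNAs. ERBB2 and ERBB3 were not called with either.

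**Figure D1:**
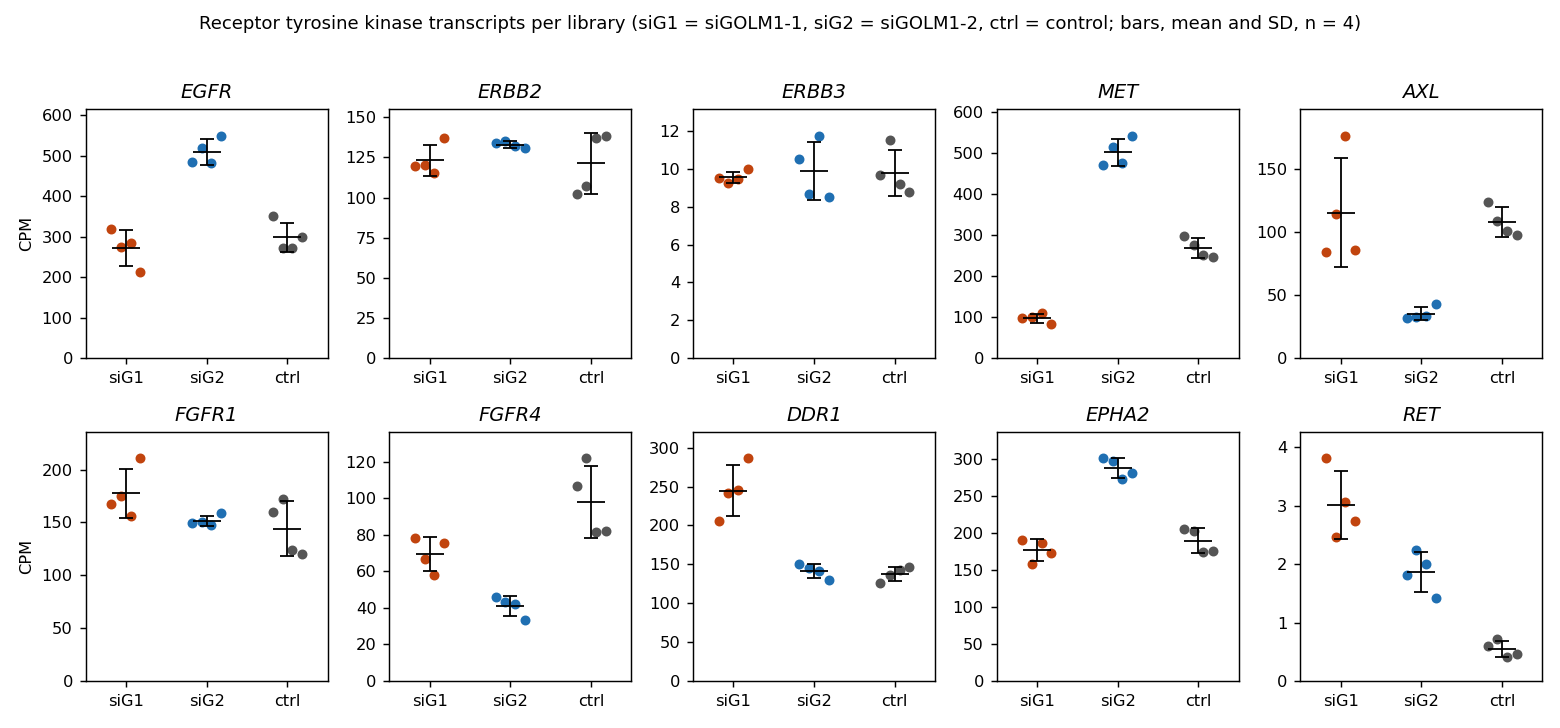
CPM (y axis of each panel, from 0) of the 10 receptor transcripts in each library of siGOLM1-1 (siG1), siGOLM1-2 (siG2) and control (ctrl) cells, with a point for each library and bars for the mean and SD of 4 libraries. MET separates all 3 groups, with 82.66 to 109.4 CPM in siGOLM1-1 libraries, 470.7 to 541.8 CPM in siGOLM1-2 libraries and 245.0 to 298.4 CPM in control libraries.

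Against the control, 3 of the 10 receptors were called higher with siGOLM1-1 (FGFR1, DDR1 and RET) and 2 lower (MET and FGFR4), at a Benjamini-Hochberg adjusted p under 0.05 in edgeR's quasi-likelihood test over all genes. Of all genes tested, 23.7% were called higher and 23.8% lower in that comparison, 47.5% in all, so the receptors' share of 50% is near the background. With siGOLM1-2, 4 were called higher (EGFR, MET, EPHA2 and RET) and 2 lower (AXL and FGFR4), against 21.8% and 23.2% of all genes and 45% in all. The groups' libraries did not overlap for 4 receptors with siGOLM1-1 and for 6 with siGOLM1-2, against 41% and 45.9% of all genes tested. A called difference of at least 1 on the log2 scale was seen for 2 receptors with siGOLM1-1 (MET and RET) and 3 with siGOLM1-2 (AXL, FGFR4 and RET), against 11.8% and 10.6% of all genes. The median size of the log2 fold change, without its sign, was 0.216 over the receptors and 0.35 over all genes with siGOLM1-1, and 0.687 over the receptors and 0.328 over all genes with siGOLM1-2. The signed median was -0.00688 over the receptors and -0.0101 over all genes with siGOLM1-1, and 0.102 over the receptors and -0.00936 over all genes with siGOLM1-2. Both comparisons share the 4 control libraries.

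**Figure D2:**
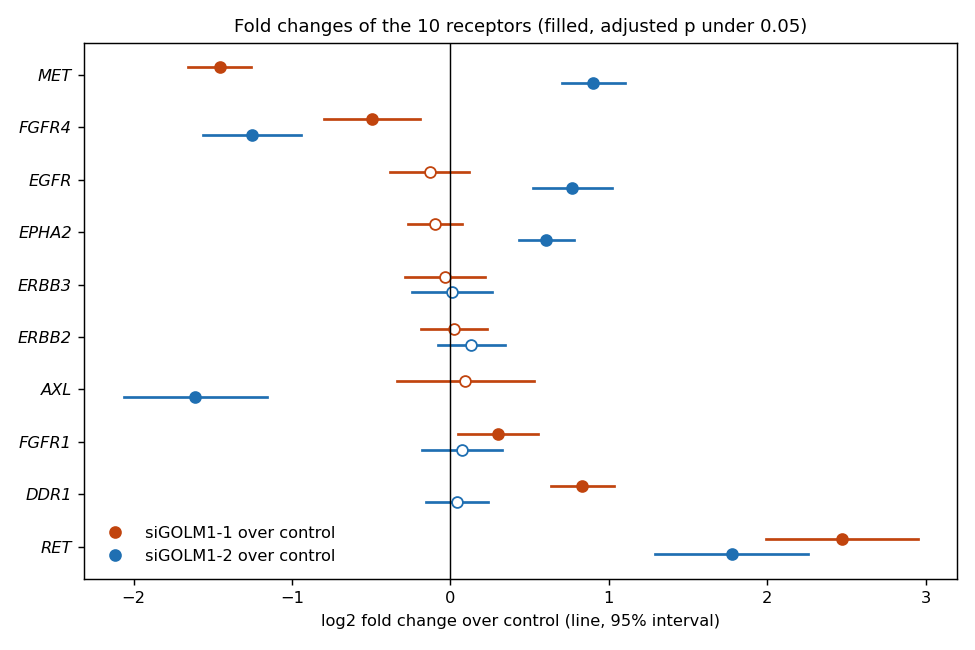
Log2 fold change over the control (x axis) of each receptor with siGOLM1-1 (orange) and siGOLM1-2 (blue), with lines for the 95% interval from edgeR's quasi-likelihood fit and filled points for an adjusted p under 0.05. MET lies at -1.46 with siGOLM1-1 and 0.90 with siGOLM1-2, and RET lies at 2.47 and 1.78.

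MET showed the widest gap between the siRNAs among the 10 receptors. Its siGOLM1-1 libraries held 98.84, 99.04, 109.4 and 82.66 CPM, its siGOLM1-2 libraries 470.7, 514.9, 475.4 and 541.8 CPM, and its control libraries 298.4, 276.1, 251.8 and 245.0 CPM. Every siGOLM1-1 library was under every control library, and every siGOLM1-2 library was above every control library. Against the control, the log2 fold change was -1.46 with siGOLM1-1 (SE 0.0942, 95% interval -1.66 to -1.26, adjusted p = 5.66e-08 by edgeR) and 0.90 with siGOLM1-2 (SE 0.0928, 0.703 to 1.1, adjusted p = 5.56e-06). It was the only 1 of the 10 called in opposite directions with the 2 siRNAs, which held for 7.11% of all genes tested. In bulk RNA, fewer cells that hold a transcript and less of it per cell cannot be told apart, which applies to every difference given here.

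EGFR, the receptor for EGF, TGFA and related ligands, rose with siGOLM1-2. Its siGOLM1-1 libraries held 320.4, 273.7, 284.7 and 212.7 CPM, its siGOLM1-2 libraries 486.1, 519.2, 481.6 and 550.4 CPM, and its control libraries 350.5, 273.1, 272.9 and 298.4 CPM. All siGOLM1-2 libraries stood above the control range, whereas siGOLM1-1 and control libraries overlapped. The log2 fold change over control was 0.77 with siGOLM1-2 (SE 0.116, adjusted p = 0.000129 by edgeR; 1.7-fold) and -0.13 with siGOLM1-1 (SE 0.116, 95% interval -0.379 to 0.118, adjusted p = 0.373).

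The other receptors of the EGFR family were not called. ERBB2, which binds no known ligand and acts as the partner of the other family members, averaged 123.3 ± 9.63 CPM with siGOLM1-1, 133.0 ± 1.99 CPM with siGOLM1-2 and 121.3 ± 19.2 CPM in the control (SD, n = 4 each). Its log2 fold changes over control were 0.02 with siGOLM1-1 (95% interval -0.186 to 0.232) and 0.13 with siGOLM1-2 (-0.0768 to 0.342). The ERBB2 control libraries split by pair, at a mean of 104.8 CPM in replicates 1 and 2 and 137.8 CPM in replicates 3 and 4. Against replicates 1 and 2 alone the ERBB2 differences were called, at 0.235 on the log2 scale with siGOLM1-1 (adjusted p = 0.0379 by edgeR) and 0.342 with siGOLM1-2 (adjusted p = 0.00661). Against replicates 3 and 4 alone they had the opposite sign and were not called, at -0.151 (adjusted p = 0.153) and -0.0356 (adjusted p = 0.753). ERBB2 also shares its locus with PGAP3 and MIEN1 on the opposite strand, whose counts amounted to 14.7% and 37.2% of those of ERBB2, so its values are uncertain if reads were counted without strand, and the setting is not given in the sources used here. ERBB3, a neuregulin receptor with little kinase activity of its own, was low, at 9.553 ± 0.297 CPM with siGOLM1-1, 9.882 ± 1.55 CPM with siGOLM1-2 and 9.805 ± 1.21 CPM in the control. The 95% intervals of its log2 fold changes were -0.29 to 0.216 with siGOLM1-1 and -0.241 to 0.265 with siGOLM1-2.

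AXL, the receptor for GAS6, fell 3.05-fold with siGOLM1-2. Its siGOLM1-1 libraries held 83.75, 114.0, 176.1 and 85.61 CPM, its siGOLM1-2 libraries 31.42, 32.89, 33.57 and 43.13 CPM, and its control libraries 123.8, 108.5, 100.5 and 97.79 CPM. The siGOLM1-2 libraries lay under all others. The siGOLM1-1 libraries spread on both sides of the control, with replicate 3 the highest of all 12. Over control, the log2 fold change was -1.61 with siGOLM1-2 (SE 0.206, adjusted p = 4.32e-05 by edgeR) and 0.09 with siGOLM1-1 (SE 0.2, 95% interval -0.339 to 0.526, adjusted p = 0.727). Under the alternatives tried, replicates left out among them, the siGOLM1-1 value ran from -0.187 to 0.223 and was not called in any of the 21.

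**Figure D3:**
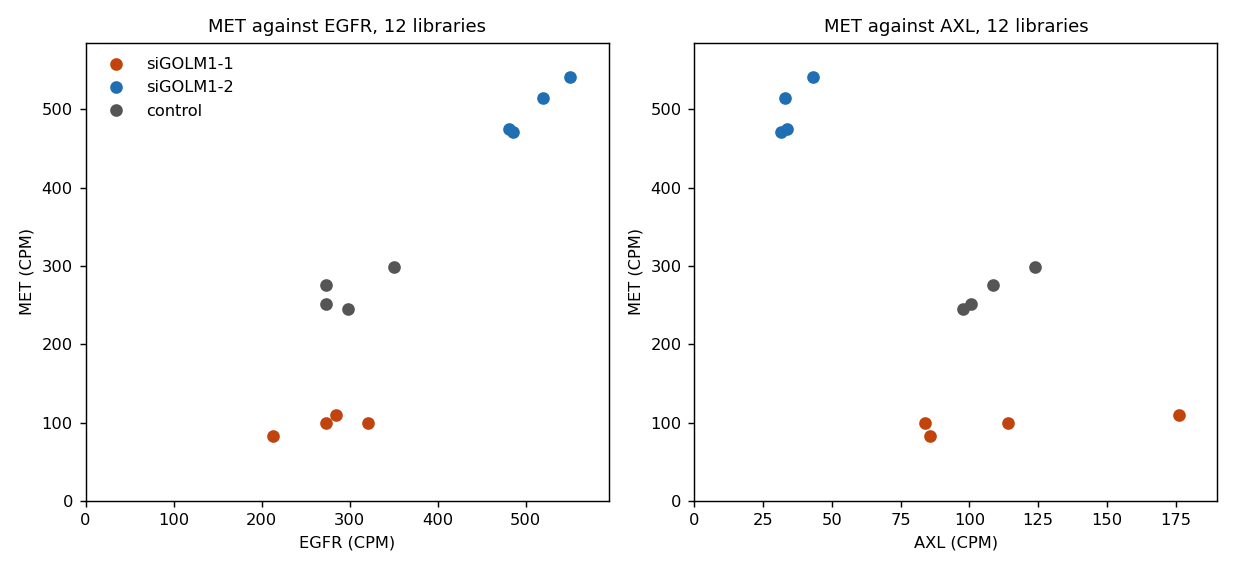
MET (y axes) against EGFR (left) and AXL (right), in CPM from 0, with 1 point for each of the 12 libraries. siGOLM1-2 libraries are high for MET and EGFR and low for AXL, at 31.42 to 43.13 CPM of AXL, and siGOLM1-1 libraries are low for MET at EGFR levels within or near those of the control.

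The balance between these receptors was also read within each library. The ratio of EGFR to MET counts was 2.57 to 3.24 in siGOLM1-1 libraries and 1.01 to 1.03 in siGOLM1-2 libraries, against 0.989 to 1.22 in control libraries. The ratio of AXL to MET counts was 0.847 to 1.61 with siGOLM1-1 and 0.0639 to 0.0796 with siGOLM1-2, against 0.393 to 0.415 in the control. The EGFR to MET ratio of siGOLM1-2 libraries thus lay within the control range, and the others lay outside it. These ratios are of counts, not corrected for transcript length, and do not depend on the scaling between libraries.

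EPHA2, an ephrin receptor abundant in epithelial cells, rose with siGOLM1-2. The siGOLM1-1 libraries held 190.5, 157.7, 186.2 and 172.6 CPM, the siGOLM1-2 libraries 300.4, 297.2, 272.7 and 280.5 CPM, and the control libraries 204.8, 203.0, 173.9 and 175.3 CPM. The siGOLM1-2 libraries stood clear of both other groups, which overlapped. The log2 fold change over control was 0.60 with siGOLM1-2 (SE 0.0805, adjusted p = 4.67e-05 by edgeR; 1.52-fold) and -0.10 with siGOLM1-1 (95% interval -0.271 to 0.074, adjusted p = 0.333). EFNA1, a ligand of EPHA2, rose with siGOLM1-1 instead, with a mean of 94.55 ± 19 CPM against 34.64 ± 1.35 CPM in the control (log2 fold change 1.45, adjusted p = 4.34e-07), and its difference with siGOLM1-2 was 0.18 (adjusted p = 0.234).

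DDR1, a receptor for collagen, rose with siGOLM1-1. It held 206.2, 241.9, 245.3 and 286.3 CPM in siGOLM1-1 libraries, 150.1, 145.2, 141.1 and 129.6 CPM in siGOLM1-2 libraries, and 125.8, 136.4, 142.5 and 146.1 CPM in control libraries. The siGOLM1-1 libraries were the 4 highest, and the siGOLM1-2 and control libraries overlapped. On the log2 scale DDR1 differed from the control by 0.83 with siGOLM1-1 (SE 0.092, adjusted p = 7.35e-06 by edgeR; 1.78-fold) and 0.04 with siGOLM1-2 (95% interval -0.157 to 0.236, adjusted p = 0.751).

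FGFR4 fell with siGOLM1-2 and, less firmly, with siGOLM1-1. FGFR4 and FGFR1 are receptors for fibroblast growth factors. FGFR4 held 78.09, 66.59, 58.09 and 75.51 CPM in siGOLM1-1 libraries, 46.03, 43.2, 42.0 and 33.58 CPM in siGOLM1-2 libraries, and 106.8, 122.0, 81.69 and 82.11 CPM in control libraries. All 8 knockdown libraries lay under all control libraries. The log2 fold change was -0.50 with siGOLM1-1 (SE 0.141, adjusted p = 0.0107 by edgeR) and -1.25 with siGOLM1-2 (SE 0.143, adjusted p = 1.47e-05; 2.38-fold lower). The control pairs differed for FGFR4, at a mean of 114.4 CPM in replicates 1 and 2 and 81.9 CPM in replicates 3 and 4. Against replicates 3 and 4 alone the siGOLM1-1 difference was -0.225 and not called (adjusted p = 0.196), and against replicates 1 and 2 alone it was -0.716 (adjusted p = 0.00113), while siGOLM1-2 gave -0.975 and -1.47, called both times.

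FGFR1 was called higher with siGOLM1-1, although the libraries overlapped. It held 167.8, 174.6, 156.5 and 210.6 CPM in siGOLM1-1 libraries, 149, 149.9, 147.4 and 158.8 CPM in siGOLM1-2 libraries, and 160.0, 171.8, 123.8 and 120.2 CPM in control libraries. Control replicates 1 and 2 lay within the siGOLM1-1 range and replicates 3 and 4 below it. The log2 fold change was 0.30 with siGOLM1-1 (SE 0.117, adjusted p = 0.048 by edgeR), and this call was lost in 12 of 21 alternatives. Its size over the 21 ran from 0.0975 against control replicates 1 and 2 alone (adjusted p = 0.493) to 0.55 against replicates 3 and 4 alone (adjusted p = 0.00131). Leaving out siGOLM1-1 replicate 2 or 4, any 1 siGOLM1-2 library, or control replicate 3 or 4 each ended it, at 0.21 to 0.31 and adjusted p of 0.0512 to 0.156. With siGOLM1-2 it was 0.07 (95% interval -0.18 to 0.324, adjusted p = 0.647), with -0.135 against control replicates 1 and 2 alone (adjusted p = 0.347) and 0.326 against replicates 3 and 4 alone (adjusted p = 0.0269). The ratio of FGFR4 to FGFR1 counts was 0.359 to 0.465 in siGOLM1-1 libraries and 0.211 to 0.309 in siGOLM1-2 libraries, against 0.66 to 0.71 in control libraries, so in both control pairs it was above that of every knockdown library. FGFR1 overlaps LETM2 on the opposite strand, whose counts amounted to 4.03% of its own.

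RET, the receptor that signals with GFRA co-receptors for ligands of the GDNF family, rose with both siRNAs from a low level. The siGOLM1-1 libraries held 268, 131, 151 and 129 RET counts, the siGOLM1-2 libraries 90, 132, 102 and 71, and the control libraries 30, 30, 19 and 23. In CPM these were 3.812, 2.466, 3.059 and 2.732 with siGOLM1-1, 1.816, 2.235, 1.997 and 1.412 with siGOLM1-2, and 0.600, 0.721, 0.402 and 0.463 in the control. Every siGOLM1-1 library was above every siGOLM1-2 library, and both groups were above every control library. The log2 fold change was 2.47 with siGOLM1-1 (SE 0.222, adjusted p = 1.14e-06 by edgeR; 5.54-fold) and 1.78 with siGOLM1-2 (SE 0.224, adjusted p = 3.03e-05; 3.42-fold). By control pair it was 2.2 or 2.81 with siGOLM1-1 and 1.5 or 2.12 with siGOLM1-2, called each time. RET and FGFR4 were the 2 of 10 receptors called in the same direction with both siRNAs, against 18% of all genes tested. Divided by the length of each gene's joined exons, RET remained the least abundant of the 10 in every group.

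The siRNAs were also compared with each other, without the control. Between siGOLM1-1 and siGOLM1-2, 4 receptors were called higher with siGOLM1-1 (AXL, FGFR4, DDR1 and RET) and 3 lower (EGFR, MET and EPHA2), against 27.9% and 26.5% of all genes tested and 54.4% in all. Libraries did not overlap for 7 receptors, against 48.4% of all genes. MET was 5.14-fold lower with siGOLM1-1 than with siGOLM1-2 (log2 difference -2.36, SE 0.0969, adjusted p = 5.5e-10 by edgeR), and AXL was 3.26-fold higher (1.70, adjusted p = 1.47e-05). The differences of EGFR (-0.90), EPHA2 (-0.70), DDR1 (0.79), FGFR4 (0.76) and RET (0.69) on the log2 scale had adjusted p between 6.55e-06 and 0.00881. The 95% intervals of the log2 differences of the others were -0.319 to 0.0997 for ERBB2, -0.301 to 0.204 for ERBB3 and -0.0224 to 0.481 for FGFR1. The median size of the difference, without its sign, was 0.729 over the receptors and 0.404 over all genes.

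To compare levels between receptors, CPM were divided by the length of each gene's joined exons in GENCODE release 29, an annotation of another build than the counts, which makes these levels approximate. The exons of all annotated transcripts of a gene were joined, from 4159 bases for EPHA2 to 13842 for FGFR1. These lengths can exceed that of the transcript expressed, by amounts that differ between genes, so the order between receptors depends on them. With siGOLM1-1 the order ran from EPHA2 at 42.5 ± 3.56 CPM per kilobase (SD, n = 4) over DDR1 at 26.9 ± 3.59, AXL at 22.3 ± 8.36 and EGFR at 21.8 ± 3.58 to FGFR4 at 14.4 ± 1.88, MET at 13.9 ± 1.57, FGFR1 at 12.8 ± 1.69 and ERBB2 at 11.9 ± 0.933. With siGOLM1-2 it ran from MET at 71.1 ± 4.81 and EPHA2 at 69.2 ± 3.19 over EGFR at 40.7 ± 2.56 to DDR1 at 15.5 ± 0.959, ERBB2 at 12.9 ± 0.192, FGFR1 at 10.9 ± 0.37, FGFR4 at 8.53 ± 1.11 and AXL at 6.84 ± 1.03. In the control it ran from EPHA2 at 45.5 ± 4.07 and MET at 38.0 ± 3.46 over EGFR at 23.9 ± 2.92, AXL at 20.9 ± 2.27 and FGFR4 at 20.3 ± 4.09 to DDR1 at 15.1 ± 0.975, ERBB2 at 11.8 ± 1.86 and FGFR1 at 10.4 ± 1.87. ERBB3 followed at 1.06 to 1.09 and RET was last at 0.437 with siGOLM1-1, 0.27 with siGOLM1-2 and 0.0791 in the control. With siGOLM1-1, neighbours in this order overlapped in their libraries from DDR1 over AXL to EGFR, and from FGFR4 over MET and FGFR1 to ERBB2. With siGOLM1-2, MET overlapped with EPHA2, and FGFR4 with AXL. In the control, EPHA2 overlapped with MET, ERBB2 with FGFR1, and neighbours from EGFR over AXL to FGFR4 with each other. By these lengths, MET stood in place 6 of 10 with siGOLM1-1, 1 with siGOLM1-2 and 2 in the control, and other lengths could give other places.

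For 5 of the 6 receptors called with siGOLM1-2, 3 up (MET, EGFR and EPHA2) and 2 down (AXL and FGFR4), the 250 bases before the gene's most upstream listed start are shown. RET is not shown. EGFR, AXL and FGFR4 have 2 listed starts each. The receptors are grouped by their direction with siGOLM1-2 alone, and with siGOLM1-1 these groups did not move together. They are RefSeq sequences of GRCh38.p14, not the hg19 build of the counts, read 5′ to 3′ on the gene's strand: MET at chr7:116671946-116672195 (plus strand), EGFR at chr7:55018767-55019016 (plus), EPHA2 at chr1:16156070-16156319 (minus), AXL at chr19:41218973-41219222 (plus) and FGFR4 at chr5:177086665-177086914 (plus). Capitals mark each GC box, the letters GGGCGG on either strand, the core bound by SP family factors.
MET: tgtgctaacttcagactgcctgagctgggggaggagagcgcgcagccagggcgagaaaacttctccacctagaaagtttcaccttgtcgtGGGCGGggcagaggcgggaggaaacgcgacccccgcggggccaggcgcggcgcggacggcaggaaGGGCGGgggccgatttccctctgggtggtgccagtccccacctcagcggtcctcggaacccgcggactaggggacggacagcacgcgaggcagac
EGFR: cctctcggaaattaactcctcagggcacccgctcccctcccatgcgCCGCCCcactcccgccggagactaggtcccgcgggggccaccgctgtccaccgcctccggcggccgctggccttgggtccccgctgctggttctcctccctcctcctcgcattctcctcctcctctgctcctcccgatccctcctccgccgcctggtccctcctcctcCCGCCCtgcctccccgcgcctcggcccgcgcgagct
EPHA2: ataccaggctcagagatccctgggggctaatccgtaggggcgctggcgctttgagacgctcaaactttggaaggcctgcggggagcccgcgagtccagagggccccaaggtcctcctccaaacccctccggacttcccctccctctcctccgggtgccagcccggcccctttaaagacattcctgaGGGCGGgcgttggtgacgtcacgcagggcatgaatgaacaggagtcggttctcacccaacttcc
AXL: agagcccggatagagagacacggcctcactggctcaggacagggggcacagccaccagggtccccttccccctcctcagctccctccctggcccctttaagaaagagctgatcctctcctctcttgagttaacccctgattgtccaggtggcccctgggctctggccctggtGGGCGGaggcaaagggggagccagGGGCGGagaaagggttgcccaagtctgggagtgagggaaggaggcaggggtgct
FGFR4: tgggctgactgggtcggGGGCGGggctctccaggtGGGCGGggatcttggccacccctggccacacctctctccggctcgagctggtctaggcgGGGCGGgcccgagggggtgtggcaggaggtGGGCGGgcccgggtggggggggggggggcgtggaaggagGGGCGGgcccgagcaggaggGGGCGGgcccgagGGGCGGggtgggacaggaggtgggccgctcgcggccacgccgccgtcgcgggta

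Of the 10 receptors, 8 had an entry in the promoter table. A GC box was present in all 5 sequences shown, once in EPHA2, 2 times in MET, EGFR and AXL and 7 times in FGFR4, and 42.2% of 27305 promoters of the same length hold at least 1. RET, which rose with both siRNAs, had 5, and the windows used for DDR1 and ERBB2 had none. DDR1 has 8 listed starts, of which only the most upstream was used. ERBB2 has 1 listed start, at a locus shared with PGAP3. Other starts of these genes were not searched, so these windows do not show that their promoters lack a GC box. The AP-1 site TGANTCA, the TATA box TATAAA and the E-box CACGTG, searched on both strands, were absent from the 5 windows, and are present in 6.57%, 11.2% and 6.46% of all promoters. G and C made up 68.4% of the MET window, 73.6% of EGFR, 63.2% of EPHA2, 64.4% of AXL and 79.6% of FGFR4, against a median of 57.6% over all promoters. The windows of the receptors that rose and of those that fell with siGOLM1-2 therefore held the same 1 of the 4 motifs, which is a match of letters and not a measurement of binding.

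The genes whose 12 values followed a receptor most closely were sought by the root mean square gap between log2 CPM after each gene's mean was removed, among 9836 genes averaging 10 CPM or more, for the 6 receptors whose values spanned at least 1 on the log2 scale. Nearest to MET were SAMHD1 at a gap of 0.12, BACE1 at 0.168 and QPCT at 0.168, where the median gene lay at 1.02. Nearest to EGFR were GABRA5 (0.122), ATP6V1A (0.124) and SLC30A7 (0.128), with a median gap of 0.505. Nearest to AXL were FYB (0.24), ERO1L (0.245) and ABHD6 (0.26), with a median gap of 0.832. For FGFR4 they were PHLDB1 (0.162), CEP41 (0.176) and ARHGEF39 (0.178), for DDR1 CRAT (0.0697) and UNC93B1 (0.0709), and for RET MATN2 (0.32), SH3PXD2A (0.336) and ABCA1 (0.341). ERBB3 and RET, which average under 10 CPM, could not be neighbours, and none of the other 8 receptors was among the 3 nearest of another.

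The ligands and co-receptors of these pathways moved in both directions. Of 38 listed genes, 30 were tested, and 8 rose, 9 fell and 13 were not called with siGOLM1-1, with a median log2 fold change of -0.0295 beside -0.0101 over all genes. With siGOLM1-2, 8 rose, 7 fell and 15 were not called, with a median of 0.134 beside -0.00936, and against control replicates 1 and 2 alone 4 rose, as did 5 without siGOLM1-1 replicate 2, siGOLM1-2 replicate 1 or 2, or control replicate 3. With siGOLM1-1, against control replicates 3 and 4 alone, 5 fell. In the fit of all 12 libraries, the shares of all genes called higher and lower were 23.7% and 23.8% with siGOLM1-1, and 21.8% and 23.2% with siGOLM1-2. Fits with fewer libraries can lose calls for that reason alone, and their shares of all genes are not given here. TGFA, an EGFR ligand, averaged 5.148 ± 1.31 CPM with siGOLM1-1 and 38.8 ± 6.22 CPM with siGOLM1-2, against 12.28 ± 2.33 CPM in the control (log2 fold changes -1.26 and 1.66, adjusted p = 8.93e-05 and 8.78e-06 by edgeR), and so was called in opposite directions, as MET was. HBEGF, another EGFR ligand, rose with both, to 5.805 ± 0.878 CPM with siGOLM1-1 and 5.416 ± 2.1 CPM with siGOLM1-2, against 2.294 ± 0.345 CPM in the control (adjusted p = 0.000287 and 0.000592). GAS6, the ligand of AXL, averaged 17.63 ± 0.827 CPM with siGOLM1-2 against 11.5 ± 0.862 CPM in the control (log2 fold change 0.62, adjusted p = 0.000445), where AXL itself fell. FGF2, a fibroblast growth factor, averaged 34.18 ± 4.62 CPM with siGOLM1-1 against 80.31 ± 7.8 CPM in the control (-1.23, adjusted p = 4.38e-07), and NRG2, a neuregulin, 2.821 ± 0.0457 CPM against 5.753 ± 0.637 CPM (-1.03, adjusted p = 6.64e-06).

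Partners of the receptors named here were picked after their values had been seen. HGF, the ligand of MET, was near the limit of detection, at 0.0795 ± 0.0202 CPM with siGOLM1-1 and 0.5493 ± 0.12 CPM with siGOLM1-2, against 0.7145 ± 0.339 CPM in the control, with a called log2 fold change of -3.10 for siGOLM1-1 (adjusted p = 2.51e-05 by edgeR), which by control pair was -2.42 or -3.55. KLB, the co-receptor through which FGFR4 and FGFR1 answer endocrine fibroblast growth factors, averaged 6.774 ± 1.46 CPM with siGOLM1-1 and 0.8571 ± 0.251 CPM with siGOLM1-2, against 1.897 ± 0.589 CPM in the control (log2 fold changes 1.84 and -1.15, adjusted p = 3.34e-05 and 0.00281). Against control replicates 3 and 4 alone the KLB fall with siGOLM1-2 was -0.689 and not called (adjusted p = 0.0617). GFRA1, a co-receptor of RET, averaged 18.07 ± 4.18 CPM with siGOLM1-1 against 30.72 ± 4.57 CPM in the control (-0.76, adjusted p = 0.00963), where RET rose. The GFRA1 call was lost against control replicates 3 and 4 alone (-0.63, adjusted p = 0.0714). GFRA2, another co-receptor of RET, went the other way from a low level. It averaged 3.296 ± 0.61 CPM with siGOLM1-1 against 0.8382 ± 0.361 CPM in the control (1.975, adjusted p = 3.68e-05 by edgeR). Neither GFRA1 nor GFRA2 was called with siGOLM1-2 (adjusted p = 0.36 and 0.151).

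Other receptor tyrosine kinases changed in both directions as well. Of 48 listed, 33 were tested. With siGOLM1-1, 9 rose, 10 fell and 14 were not called (median log2 fold change -0.105), and with siGOLM1-2, 13 rose, 7 fell and 13 were not called (median 0.139). Over all genes tested, 23.7% rose and 23.8% fell with siGOLM1-1 (median -0.0101), and 21.8% rose and 23.2% fell with siGOLM1-2 (median -0.00936). Against control replicates 1 and 2 alone, the siGOLM1-2 counts were 5 higher and 2 lower. That fit holds fewer control libraries, and its shares of all genes are not given here. ROR1, a WNT5A receptor, averaged 30.85 ± 8.55 CPM with siGOLM1-1 and 42.91 ± 10.6 CPM with siGOLM1-2, against 13.38 ± 2.51 CPM in the control (1.21 and 1.68, adjusted p = 0.000455 and 4.13e-05 by edgeR). NTRK3, the neurotrophin-3 receptor, fell to 77.1 ± 20.9 CPM with siGOLM1-1 and 71.79 ± 14.2 CPM with siGOLM1-2, against 160.0 ± 8.8 CPM in the control (-1.05 and -1.16). RYK, a WNT receptor, rose with both (0.73 and 0.47), and EPHB2, an ephrin-B receptor, rose by 0.71 with siGOLM1-1 and 0.38 with siGOLM1-2, the second not called against control replicates 1 and 2 alone (adjusted p = 0.0806). FLT4, the receptor for VEGFC, fell by 0.64 with siGOLM1-1 (adjusted p = 9.74e-05). IGF1R, picked after its values had been seen as an abundant receptor that was not called, averaged 336.6 ± 35 CPM with siGOLM1-1, 379.6 ± 13.5 CPM with siGOLM1-2 and 333.3 ± 30.5 CPM in the control, and was called for siGOLM1-2 without control replicate 1 (0.244, adjusted p = 0.0384), against control replicates 3 and 4 alone (0.276, adjusted p = 0.0445, beside 0.117 and adjusted p = 0.397 against replicates 1 and 2 alone) or under library totals alone (0.262, adjusted p = 0.0423).

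**Figure D4:**
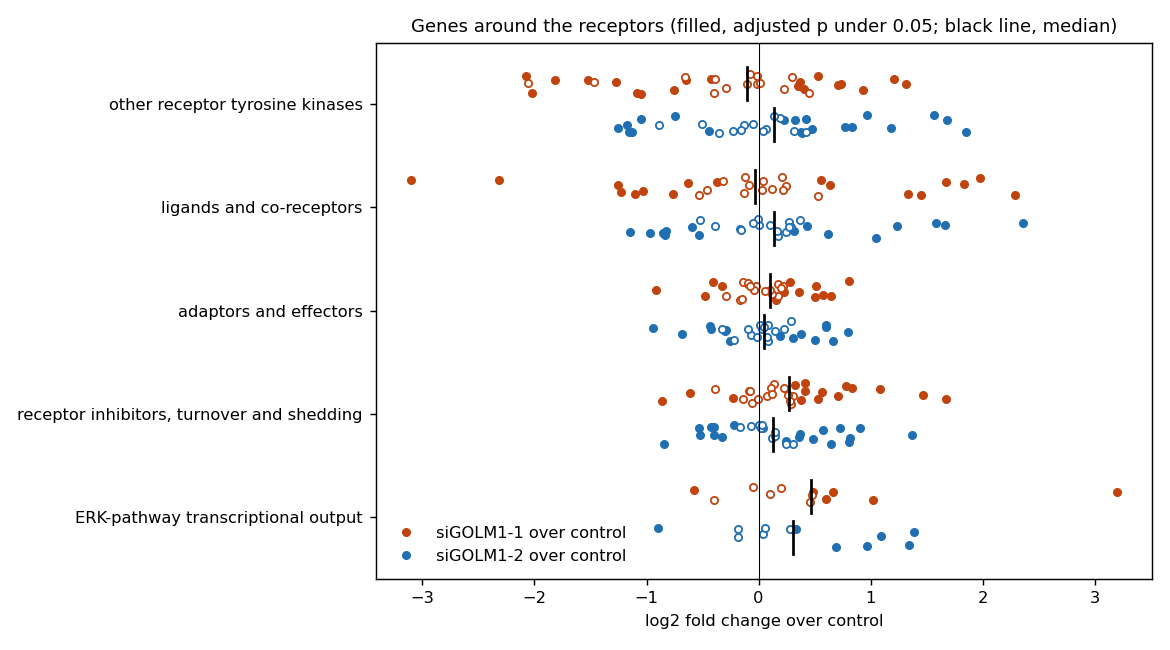
Log2 fold change over the control (x axis) of each tested gene in 5 lists around the receptors, with siGOLM1-1 in orange and siGOLM1-2 in blue. Filled points have an adjusted p under 0.05 and black lines mark each list's median. For receptor inhibitors, turnover and shedding genes it lies at 0.27 with siGOLM1-1 and 0.132 with siGOLM1-2.

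Among receptor inhibitors, turnover and shedding genes, 30 of 31 were tested. With siGOLM1-1, 12 rose, 3 fell and 15 were not called (median log2 fold change 0.27), and with siGOLM1-2, 11 rose, 8 fell and 11 were not called (median 0.132), with 4 lower against control replicates 1 and 2 alone. In the fit of all 12 libraries, the shares of all genes tested were 23.7% higher and 23.8% lower with siGOLM1-1 and 21.8% higher and 23.2% lower with siGOLM1-2, with medians of -0.0101 and -0.00936. The shares in the fit with 1 control pair, which holds fewer libraries, are not given here. The receptor-type tyrosine phosphatases PTPRJ and PTPRF rose with both siRNAs. PTPRJ averaged 249.2 ± 15.1 CPM with siGOLM1-1 and 149.4 ± 6.91 CPM with siGOLM1-2, against 90.2 ± 8.96 CPM in the control (log2 fold changes 1.47 and 0.73, adjusted p = 1.17e-08 and 7.48e-06 by edgeR). PTPRF averaged 515.5 ± 21.8 CPM and 540.5 ± 28.9 CPM with the 2 siRNAs, against 288.7 ± 14.8 CPM (0.84 and 0.90). ADAM17, the protease that releases TGFA and HBEGF from the cell surface, rose by 1.09 with siGOLM1-1 (adjusted p = 2.57e-08) and by 0.36 with siGOLM1-2 (adjusted p = 0.000455). ADAM10, a related sheddase, differed by 0.41 with siGOLM1-1 (adjusted p = 0.000931) and -0.52 with siGOLM1-2 (adjusted p = 0.000171). LRIG1, which lowers the level of EGFR family receptors, was picked after its values had been seen, and averaged 40.9 ± 1.93 CPM with siGOLM1-1 and 33.18 ± 5.09 CPM with siGOLM1-2, against 12.84 ± 5.55 CPM in the control. Its log2 fold change ran, by control pair, from 1.21 to 2.36 with siGOLM1-1 and from 0.909 to 2.06 with siGOLM1-2. ERRFI1, another gene of this list picked after its values had been seen, was called in opposite directions with the siRNAs. Its log2 fold changes were 0.71 with siGOLM1-1 and -0.84 with siGOLM1-2 (adjusted p = 0.0193 and 0.0083 by edgeR). The siGOLM1-2 call of ERRFI1 was lost against control replicates 1 and 2 alone (-0.189, adjusted p = 0.115).

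Of 30 adaptors and effectors, 29 were tested. With siGOLM1-1, 9 rose, 4 fell and 16 were not called (median log2 fold change 0.0981), and with siGOLM1-2, 8 rose, 7 fell and 14 were not called (median 0.0515), with 4 lower under library totals alone or without siGOLM1-2 replicate 1 or 4 or control replicate 2. Of all genes, 23.7% rose and 23.8% fell with siGOLM1-1 (median -0.0101), and 21.8% rose and 23.2% fell with siGOLM1-2 (median -0.00936). The shares of all genes under those alternatives are not given here. The adaptor GRB2 averaged 113.2 ± 3.99 CPM with siGOLM1-2 against 74.69 ± 1.5 CPM in the control (0.60, adjusted p = 2.31e-06 by edgeR). It was called higher with siGOLM1-1 as well, by less, at 87.35 ± 3.02 CPM (0.226, adjusted p = 0.00417). NRAS averaged 43.23 ± 1.86 CPM with siGOLM1-2 against 69.47 ± 3.44 CPM (-0.68), and MAPK3, which encodes ERK1, 16.17 ± 0.118 CPM against 31.05 ± 2.86 CPM (-0.94, adjusted p = 4.28e-05). With siGOLM1-1, PIK3CA, the catalytic subunit of PI3K, fell to 11.19 ± 2.19 CPM against 21.2 ± 2.28 CPM in the control (-0.92), while MAP2K2, which encodes MEK2, rose by 0.81 and BRAF by 0.51. MAP2K2 and BRAF were called higher with siGOLM1-2 too (0.66 and 0.31, adjusted p = 0.00175 and 0.014 by edgeR). The BRAF call with siGOLM1-2 was lost against control replicates 1 and 2 alone (0.266, adjusted p = 0.0982). STAT3, picked after its values had been seen, averaged 292.9 ± 25.9 CPM with siGOLM1-1 and 550.1 ± 42.8 CPM with siGOLM1-2, against 387.4 ± 6.62 CPM in the control (-0.40 and 0.51, adjusted p = 0.000736 and 0.000142), the same pair of directions as MET and TGFA. Calls in opposite directions held for 7.11% of all genes tested, and ADAM10 and KLB had the reverse pair. A link between these genes was not tested.

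All 12 genes listed as transcriptional output of the ERK pathway were tested. With siGOLM1-1, 5 rose, 1 fell and 6 were not called (median log2 fold change 0.47), and with siGOLM1-2, 6 rose, 1 fell and 5 were not called (median 0.304). Of all genes tested, 23.7% rose and 23.8% fell with siGOLM1-1 (median -0.0101), and 21.8% rose and 23.2% fell with siGOLM1-2 (median -0.00936). The counts of the list changed in fits with 1 control pair, which hold fewer control libraries. Fewer libraries can change calls by themselves, and the shares of all genes in those fits are not given here. With siGOLM1-1 they were 3 higher and 2 lower against control replicates 1 and 2 alone, and 8 higher against replicates 3 and 4 alone, with 2 lower without siGOLM1-1 replicate 1. With siGOLM1-2 they were 2 higher and 2 lower against replicates 1 and 2 alone. DUSP5, a phosphatase of nuclear ERK, averaged 298.6 ± 62.4 CPM with siGOLM1-1 and 84.86 ± 27.2 CPM with siGOLM1-2, against 32.49 ± 9.88 CPM in the control (3.20 and 1.39, adjusted p = 6.58e-07 and 0.000514 by edgeR), or by control pair 2.87 and 3.65 with siGOLM1-1 and 1.05 and 1.84 with siGOLM1-2. DUSP6, a phosphatase of cytoplasmic ERK, averaged 28.08 ± 1.77 CPM with siGOLM1-2 against 13.18 ± 3.55 CPM (1.09, adjusted p = 0.000183). CCND1, which encodes cyclin D1, averaged 575.4 ± 64.1 CPM with siGOLM1-1 and 220.9 ± 15.7 CPM with siGOLM1-2, against 411.3 ± 46.8 CPM in the control (0.48 and -0.90, adjusted p = 0.00118 and 1.0e-05). MYC went the other way round, with -0.57 for siGOLM1-1 (adjusted p = 0.000117) and 0.33 for siGOLM1-2 (adjusted p = 0.00711), and the siGOLM1-2 call was lost against control replicates 1 and 2 alone (0.301, adjusted p = 0.0555).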

How the data were processed

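RNA sequencing counts of 12 libraries (4 each with siGOLM1-1, siGOLM1-2 and control siRNA) were analysed. Per the labels' protocols, a stranded mRNA kit and paired-end sequencing were used. Reads were demultiplexed with bcl2fastq 2.20 and aligned with STAR 2.7.3 to hg19, and DESeq2 1.24.0 was used by the authors, per the submitters' processing notes. The counter, annotation and strand setting are not given in the sources used here. The deposited tables hold raw counts per gene. The authors' deposited result tables hold, per the file headers, the log2 fold change and its standard error, a normalised signal averaged over libraries, a test score and p-values. They were read as a comparison, and all 20 log2 fold changes of the receptors had the same sign and the same call there as here.

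The 10 receptors and all gene lists were chosen with earlier results of these data known. Tests were run with edgeR 4.0.16 (R 4.3.3), using filterByExpr, TMM scaling, 1 robust quasi-likelihood fit of all 12 libraries with group as its term, and Benjamini-Hochberg adjustment over the 17532 genes tested. Every adjusted p is from this fit unless said otherwise. CPM are counts over TMM-scaled library totals. Named genes are the receptors, GOLM1, the 3 genes of smallest p per list and control comparison among those averaging 5 CPM or more in whichever group is higher, the nearest genes by profile, the cell type markers, and genes said to be picked later, and 1 gene that this rule allowed is not reported here. Alternatives were RLE factors, library totals alone, DESeq2 1.42.0, other filters, fits of the 2 groups alone, a replicate block, single control pairs and leaving out each library.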

Additional observations from a re-analysis of the deposited data

Results flagged for a closer look

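The siRNAs target the same gene, and 7 of the 10 receptors differed between them when siGOLM1-1 was compared directly with siGOLM1-2. On the log2 scale, siGOLM1-1 minus siGOLM1-2, the differences were -0.9 for EGFR, -2.36 for MET, 1.7 for AXL, 0.756 for FGFR4, 0.791 for DDR1, -0.703 for EPHA2 and 0.695 for RET, each with an adjusted p under 0.05 in edgeR's quasi-likelihood test. Of all genes tested, 54.4% were called in this comparison. For all 7, the libraries of the 2 siRNAs did not overlap (4 against 4), which held for 48.4% of all genes. GOLM1 itself differed between them by -0.30 on that scale. No library stood apart from its group by Dixon's criterion for groups of 4 in any of 30 receptor and group combinations. That criterion looks for 1 extreme library, so it cannot flag the split of the control libraries into pairs. It was applied to the receptors only. Across genes, deviations of siGOLM1-2 replicate 4 from its group mean correlated at -0.647 to -0.4 with those of replicates 1, 2 and 3. Those of replicates 1, 2 and 3 correlated at -0.137 to 0.0723 with each other.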

How the results depend on the processing

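Of 610 receptor values under the alternatives, 593 stayed on the same side of the threshold, 13 lost a call and 4 gained one. No called value changed sign, but values that were not called did in some alternatives, as AXL with siGOLM1-1 (-0.187 to 0.223) and EPHA2 with siGOLM1-1 (-0.205 to 0.028). The lost calls were those of FGFR1 with siGOLM1-1 in 12 alternatives and of FGFR4 with siGOLM1-1 against control replicates 3 and 4 alone, where 1 receptor was lower with siGOLM1-1 in place of 2. The gained calls were ERBB2 with each siRNA against control replicates 1 and 2 alone, ERBB2 between the siRNAs under library totals alone (-0.24, adjusted p = 0.034 by edgeR) and FGFR1 with siGOLM1-2 against control replicates 3 and 4 alone. Leaving out each library in turn gave 7472 to 8700 genes called for siGOLM1-1 against control, 6904 to 8329 for siGOLM1-2 against control and 8630 to 9614 between the siRNAs. The receptors called then numbered 2 to 3 higher and 2 lower with siGOLM1-1, 4 higher and 2 lower with siGOLM1-2, and 4 higher and 3 lower between the siRNAs. The correlations of deviations of 12 same-numbered pairs ran from -0.2 to 0.35, with 3 over 0.1, so the numbers were not taken as pairing the libraries. A replicate block gave 8389, 7929 and 9613 genes called in the 3 comparisons and left every receptor count as it was. Library totals alone moved the median log2 difference of all genes between the siRNAs to -0.115, with 37.4% of called genes higher in place of 51.2%, and the share higher with siGOLM1-2 against control to 59.2% in place of 48.4%. RET, HGF and the markers LYZ, CDH5, LUM and ALB rest on few counts in some or all groups.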

Other observations

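Of the 6 epithelial markers, none rose and 2 fell with siGOLM1-1, and 1 rose and 1 fell with siGOLM1-2, at an adjusted p under 0.05 by edgeR. With siGOLM1-1 the keratins KRT8 and KRT18 fell, by 1.03 and 1.06 on the log2 scale. With siGOLM1-2, KRT7 averaged 1278 ± 208 CPM against 2426 ± 614 CPM in the control (-0.925, adjusted p = 0.000429), and KRT19 204.2 ± 84.6 CPM against 71.25 ± 6.06 CPM (1.52, adjusted p = 0.00106). KRT7 and KRT19 were not called with siGOLM1-1 (adjusted p = 0.596 and 0.0851), nor KRT8 and KRT18 with siGOLM1-2 (adjusted p = 0.367 and 0.134). KRT7 with siGOLM1-1 was 0.468 against control replicates 1 and 2 alone (adjusted p = 0.0154) and -0.165 against replicates 3 and 4 alone (adjusted p = 0.345), and KRT8 and KRT18 with siGOLM1-2 were called lower against replicates 3 and 4 alone (-0.333 and -0.421). KRT19 was called higher with siGOLM1-1 without siGOLM1-1 replicate 1 or siGOLM1-2 replicate 4, and KRT18 lower with siGOLM1-2 without control replicate 1.

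Of the 13 markers of other cell types, 6 were tested. All but ACTA2 were low in the control, at 0.08275 CPM for LYZ, 0.3775 for CDH5, 1.785 for COL3A1, 1.261 for LUM and 0.9877 for ALB. With siGOLM1-1, LYZ and CDH5 rose (2.53 and 1.96 on the log2 scale), and COL3A1, LUM, ALB and ACTA2 fell (-1.39, -1.69, -1.79 and -0.40). LYZ averaged 0.4832 ± 0.443 CPM there and held at most 7 counts in a control library. With siGOLM1-2, LYZ, CDH5, COL3A1 and LUM rose (2.23, 1.10, 1.81 and 1.06), and ALB and ACTA2 were not called (adjusted p = 0.0638 and 0.0957). The COL3A1 call was lost with siGOLM1-1 against control replicates 3 and 4 alone (adjusted p = 0.264) and with siGOLM1-2 against replicates 1 and 2 alone (adjusted p = 0.058). The siGOLM1-1 call of COL3A1 was also lost without a filter on low counts and without siGOLM1-1 replicate 2, 3 or 4 or control replicate 1 or 2.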
